A study of Arabidopsis thaliana with 26 samples.

Results

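P185, P186 and P187 are 3 neighbouring 3′ ends found on degradation intermediates of the 5′ ETS, the external transcribed spacer that precedes 18S rRNA in the *Arabidopsis* rRNA precursor. The number is the fragment's length in nt, counted from the first nucleotide of the excised P-P′ fragment. Only reads recorded without added nucleotides (a tail) were taken, that is, reads that match the 5′ ETS up to their last nucleotide. Such untailed reads were found at 389 positions, and the 3 ends held 25482 of 173861 of them (14.7%). The 3 positions were taken by number, with no threshold on their values, although P186 was already known as a major end. Their levels are given as the percentage of all untailed reads of a library, which is a share and not an amount: a higher share can stand for more of that end or for less of the others, and the 2 cannot be told apart.

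The 3′ ends were read by 3′RACE-seq, in which an adapter is ligated to RNA 3′ ends and the ligated 5′ ETS fragments are amplified and sequenced. RNA came from rosette leaves of 13 genotypes in the Col-0 accession, with 2 biological replicates each (26 libraries), which are pools of plants grown at different times. Since only 5′ ETS reads were taken, the labelled tissue could not be checked against marker genes. RRP41, a subunit of the exosome core Exo9, was RRP41Pi-Cat- (mutated in the phosphate and magnesium sites of its catalytic centre) or RRP41Pi- (phosphate site only) in libraries called inactive Exo9, and was RRP41WT or the endogenous protein in those called active Exo9. The 3 transgenes were driven by the *RRP41* promoter in *rrp41* null plants and made tagged proteins. Inactive Exo9 was sampled as *rrp41* RRP41Pi-Cat- and *rrp41* RRP41Pi- in the Col-0 background, and as *rrp41* RRP41Pi-Cat- in plants that also carried *rrp6L2*, *RRP44KD rrp6L2* or *mtr4* (10 libraries). Active Exo9 was sampled in each of the 4 backgrounds as *rrp41* RRP41WT and as plants with endogenous RRP41 (16 libraries). *rrp6L2* and *mtr4* are T-DNA insertion lines. *RRP44KD* is an artificial miRNA against *RRP44* under the mesophyll promoter *CAB3*, so that other leaf cells need not be depleted. According to the paper, *RRP44KD* plants were selected for a comparable build-up of the P-P′ fragment, from which the ends counted here derive.

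The exosome degrades RNA from the 3′ end. In most eukaryotes its core has lost activity and serves as a barrel to which the hydrolytic ribonucleases RRP6 and RRP44 are attached, while in plants RRP41 has kept a phosphorolytic site, which cleaves with phosphate instead of water. RRP6L2 is the nucleolar RRP6 of *Arabidopsis*, RRP44 is the processive hydrolytic subunit, and MTR4 is the helicase that feeds nucleolar RNA to the exosome. The spacer is cut out of the rRNA precursor as a by-product and removed by these enzymes, with shorter P-P1 fragments as intermediates.

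The stretch from P166 to P200 is shown to place the ends in their sequence, with the last bases of P185, P186 and P187 in capitals. It is followed by the last 20 nt of the fragments that end at each of them, with the last 3 nt in capitals.

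P166 to P200: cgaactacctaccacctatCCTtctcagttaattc

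P185: cgaactacctaccacctATC

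P186: gaactacctaccacctaTCC

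P187: aactacctaccacctatCCT

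The first 200 nt of the fragment match chr3:14197115-14197314 of the TAIR10.1 assembly on the plus strand, where P185, P186 and P187 end at 14197299, 14197300 and 14197301. This lies in spacer with no annotated exon, and 376 bases separate P186 from the 18S rRNA gene AT3G41768, which starts at 14197677. The stretch from P166 to P200 is also found at chr2:3309-3343, 376 bases before the 18S rRNA gene AT2G01010, and at chr2:7191326-7191360, with no rRNA gene next to it. Since the repeats are alike in this stretch, it cannot place a read in one of them. The first 200 nt were matched in full on chr3 only, and reads were not assigned to repeats. In the sequence, C follows P185 and T follows P186 and P187. A C added to P185 would therefore be read as untailed P186, and a U added to P186 as untailed P187, while an added A is told apart at all 3 ends. The last 20 nt of all 25482 reads matched the reference. Upstream, reads began at base 95 to 97, and the only frequent base change was T137C (position counted from the start of the P-P′ fragment, the reference's base first). It was in 54.3% of P186 reads, while the next most frequent change at any of the 3 ends was in 2.26%.

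P186 was the main end of the 3, P185 was a lesser one, and P187 was rare, with a median of 13.5 reads per library. Of the 25482 reads, 16978 (66.6%) ended at P186, 8106 (31.8%) at P185 and 398 (1.56%) at P187. The neighbours on either side, P184 with 271 reads and P188 with 298, were as rare as P187. P185 and P186 had at least 59 and 147 reads in every library, while P187 was absent from 1 library and had no more than 3 reads, the floor used here, in 2, that one included. The number of untailed reads per library ranged from 1464 to 16835 (median 6244), so that 3 reads correspond to 0.0178% to 0.205%. Intervals of single libraries are 95% Wilson intervals, which cover counting error only. Replicates of all 13 genotypes differed by more than counting error over the profile, with a chi-square per degree of freedom of 6.24 to 17.4.

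**Figure D1:**
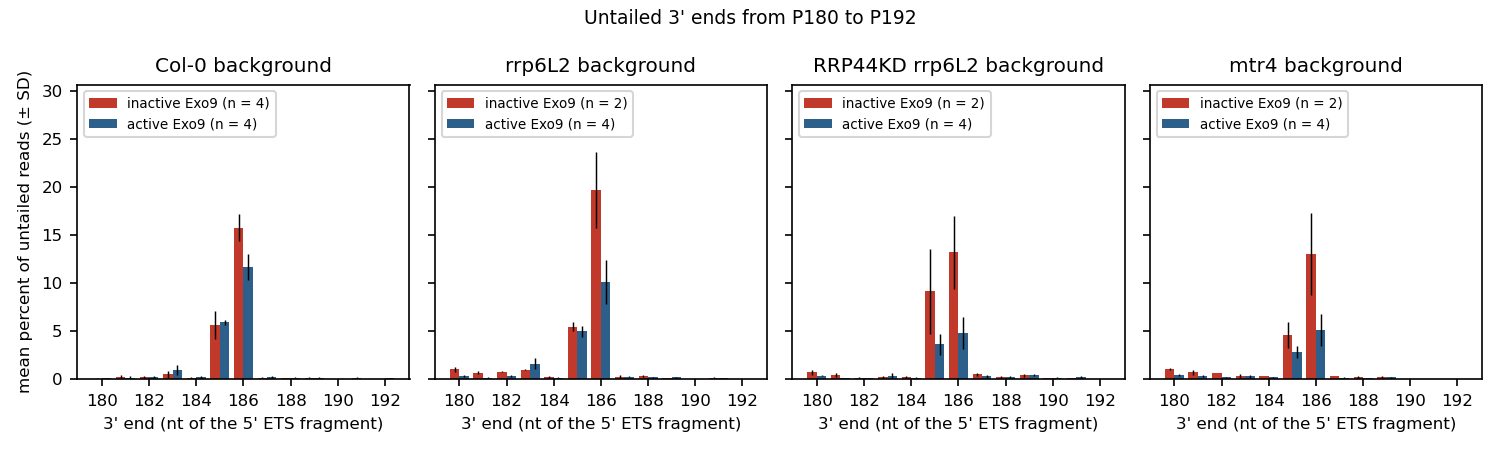
Mean percentage of untailed reads at each 3′ end from P180 to P192 (x axis, nt from the start of the P-P′ fragment), for inactive (left bars) and active Exo9 (right bars) in 4 backgrounds, with SD over 2 or 4 libraries. P185 and P186 stand out from all neighbours, and the P186 bar is higher with inactive Exo9 in each background.

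The central comparison asks how these ends changed when Exo9 lost its activity. In the Col-0 background, P186 held 16.6% and 16.8% of untailed reads in *rrp41* RRP41Pi-Cat- and 16.1% and 13.7% in *rrp41* RRP41Pi-, against 12.7% and 12.8% in *rrp41* RRP41WT and 11.1% and 10% in Col-0. All 4 libraries with inactive Exo9 lay above all 4 with active Exo9. How many other positions separated in this way was not counted, here or in the comparisons below. A lack of overlap is therefore a description only. The means were 15.8% ± 1.41 and 11.7% ± 1.35 (SD, n = 4 each). In a linear model over all 26 libraries and 61 positions (limma, on the log2 percentage plus 0.1), the change was 0.43 on the log2 scale (95% CI -0.16 to 1.03) and did not pass (adjusted p = 0.341), while 18.0% of the 61 positions passed in this contrast. The exact permutation test of these 8 libraries gave p = 0.0286, which is the smallest that 70 relabelings allow, and 0.156 after adjustment over positions.

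In *rrp6L2*, P186 held 17.0% and 22.5% in *rrp6L2 rrp41* RRP41Pi-Cat-, against 7.41% and 9.47% in *rrp6L2 rrp41* RRP41WT and 10.7% and 13% in *rrp6L2*. The groups did not overlap, and replicate 2 of *rrp6L2 rrp41* RRP41Pi-Cat- had the highest P186 of all 26 libraries (95% CI 21.5 to 23.6). The change of 0.97 on the log2 scale (95% CI 0.25 to 1.69) passed by a small margin (limma, adjusted p = 0.0429), as did 26.2% of all positions. Leaving out any 1 of the 6 libraries of this background ended the call, with changes of 0.77 to 1.17.

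In *RRP44KD rrp6L2* P186 held 10.5% and 16.0% in *RRP44KD rrp6L2 rrp41* RRP41Pi-Cat-, against 2.98% and 6.83% in *RRP44KD rrp6L2 rrp41* RRP41WT and 4.14% and 5.33% in *RRP44KD rrp6L2*. The lowest value with inactive Exo9 was above the highest with active Exo9. The means of 13.2% ± 3.85 (SD, n = 2) and 4.82% ± 1.65 (SD, n = 4) correspond to a change of 1.47 (95% CI 0.75 to 2.19, limma adjusted p = 0.00471), in a contrast that called 23.0% of positions. Without replicate 2 of *RRP44KD rrp6L2 rrp41* RRP41Pi-Cat-, which has 2125 untailed reads, the change was 1.17 and did not pass (adjusted p = 0.179).

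In *mtr4*, P186 held 16.0% and 9.99% in *mtr4 rrp41* RRP41Pi-Cat-, against 6.21% and 3.82% in *mtr4 rrp41* RRP41WT and 6.78% and 3.48% in *mtr4*. Here too the groups did not overlap, although the replicates of each genotype were far apart. The change was 1.36 (95% CI 0.64 to 2.08, limma adjusted p = 0.00391), and 32.8% of positions were called. Without replicate 1 of *mtr4 rrp41* RRP41Pi-Cat- it was 1.02 and did not pass (adjusted p = 0.101).

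**Figure D2:**
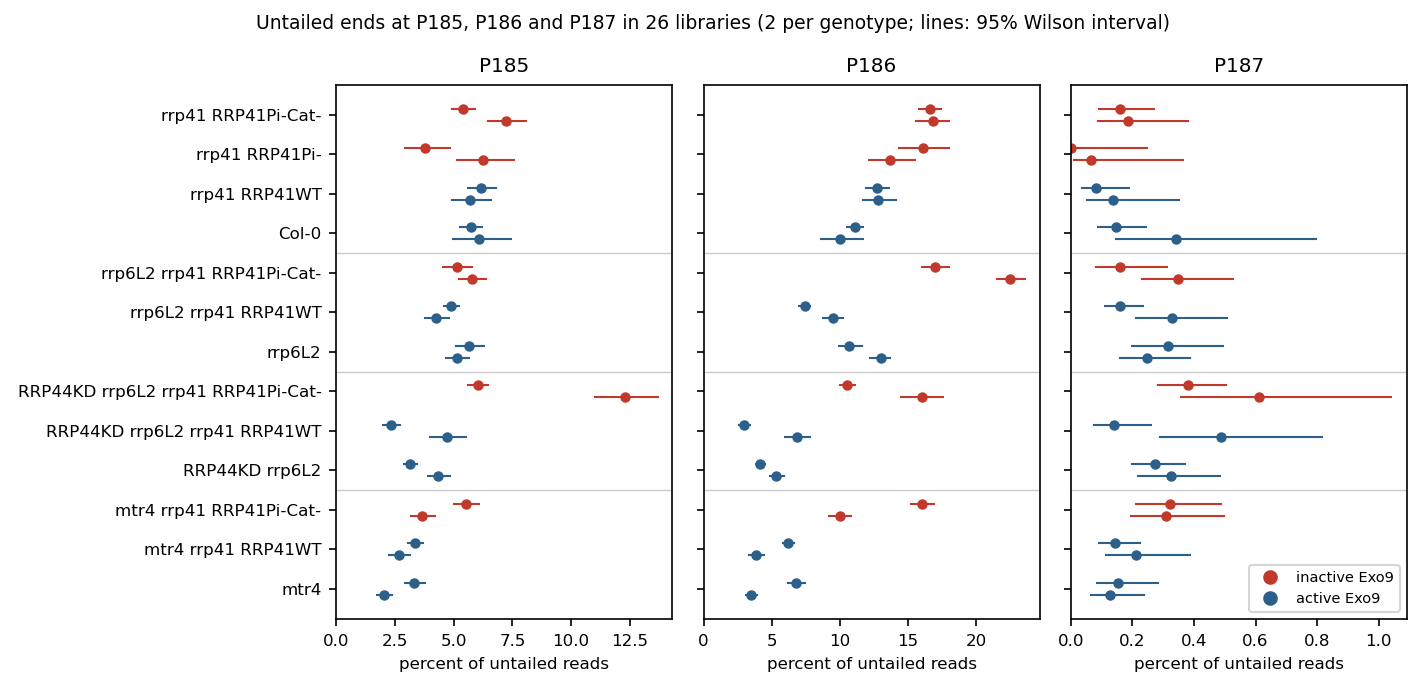
Percentage of untailed reads at P185, P186 and P187 (x axes) in each library of 13 genotypes (rows), with 95% Wilson intervals as lines. Points of inactive Exo9 lie to the right of those of active Exo9 in all 4 backgrounds at P186 (lowest 9.99% in *mtr4*), and at P185 in *RRP44KD rrp6L2* and *mtr4* but not in Col-0 and *rrp6L2*.

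Over the 4 backgrounds together, P186 averaged 15.4% with inactive Exo9 and 7.93% with active Exo9, a difference of 7.52 percentage points. The differences were 4.11 points in Col-0, 9.60 in *rrp6L2*, 8.41 in *RRP44KD rrp6L2* and 7.94 in *mtr4*. The exact permutation test within backgrounds gave p = 4.23e-06, the smallest that its 236250 relabelings allow (2.87e-05 after Benjamini-Hochberg adjustment over 61 positions). Of the 61 positions, 31 (50.8%) passed this test, 14 higher and 17 lower with inactive Exo9, so that 2 of the 3 ends passing is close to the background. By the size of its difference, however, P186 was the third of the 61, after P166, which rose by 10.1 points, and P176, which was lower by 7.76 points (difference -7.76). The difference at P186 was 8.81 points among reads without T137C and 8.40 points among reads with it. Both are shares of reads that cover this base, which leaves out short ends. They compare with 8.64 points among untailed reads ending from P140 to P200.

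The order of the 13 genotypes by mean P186 followed Exo9 activity. *rrp6L2 rrp41* RRP41Pi-Cat- was highest with 19.7% ± 3.92, followed by *rrp41* RRP41Pi-Cat- (16.7% ± 0.154), *rrp41* RRP41Pi- (14.9% ± 1.66), *RRP44KD rrp6L2 rrp41* RRP41Pi-Cat- (13.2% ± 3.85) and *mtr4 rrp41* RRP41Pi-Cat- (13% ± 4.28; SD, n = 2 each). The highest genotype with active Exo9, *rrp41* RRP41WT with 12.8% ± 0.0955, was next to them. Neighbours in this part of the order overlapped or lay within the larger of their SDs, except that both libraries of *rrp41* RRP41Pi-Cat- were above both of *rrp41* RRP41Pi-. *rrp6L2* (11.8% ± 1.58), Col-0 (10.6% ± 0.752) and *rrp6L2 rrp41* RRP41WT (8.44% ± 1.46) followed. The 4 genotypes with active Exo9 of the *mtr4* and *RRP44KD rrp6L2* backgrounds formed the low end, between 4.74% and 5.13%, and did not differ beyond their spread. As a rank among all untailed ends of a library, P186 was among the 3 most frequent in all 10 libraries with inactive Exo9 and ranked from 1 to 10 in those with active Exo9. In all 4 *RRP44KD rrp6L2* background libraries with active Exo9 it ranked from 7 to 10.

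In the Col-0 background, P185 held 5.38% and 7.22% in *rrp41* RRP41Pi-Cat- and 3.79% and 6.25% in *rrp41* RRP41Pi-, against 6.18% and 5.69% in *rrp41* RRP41WT and 5.72% and 6.08% in Col-0. The values with inactive Exo9 lay on both sides of those with active Exo9, and the log2 change was -0.10 (95% CI -0.68 to 0.48, limma adjusted p = 0.866). In *rrp6L2*, it held 5.14% and 5.79% in *rrp6L2 rrp41* RRP41Pi-Cat-, against 4.88% and 4.25% in *rrp6L2 rrp41* RRP41WT and 5.66% and 5.16% in *rrp6L2*. The groups overlapped again, with a change of 0.13 (95% CI -0.58 to 0.85, limma adjusted p = 0.791).

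In *RRP44KD rrp6L2*, P185 held 6.04% and 12.3% in *RRP44KD rrp6L2 rrp41* RRP41Pi-Cat-, against 2.32% and 4.70% in *RRP44KD rrp6L2 rrp41* RRP41WT and 3.15% and 4.34% in *RRP44KD rrp6L2*. The groups did not overlap, and the 12.3% (95% CI 11 to 13.7) of replicate 2 was the highest P185 of all libraries. The change of 1.28 (95% CI 0.56 to 1.99) passed (limma, adjusted p = 0.00876). Without that replicate it was 0.77 and did not pass (adjusted p = 0.302). In *mtr4*, P185 held 5.51% and 3.67% in *mtr4 rrp41* RRP41Pi-Cat-, against 3.36% and 2.67% in *mtr4 rrp41* RRP41WT and 3.32% and 2.03% in *mtr4*. The groups did not overlap, yet the change of 0.67 (95% CI -0.04 to 1.38) did not pass (limma, adjusted p = 0.138). It passed in 2 alternatives, among reads with T137C (0.90, adjusted p = 0.0376) and as a centred log-ratio (0.92, adjusted p = 0.0434).

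Over the 4 backgrounds, P185 averaged 6.22% with inactive Exo9 and 4.34% with active Exo9. The difference of 1.87 points passed (exact permutation test, p = 0.00643, adjusted p = 0.0145) and was the 13th of 61 by size. Of it, most came from *RRP44KD rrp6L2* with 5.53 points and *mtr4* with 1.75 points, beside 0.474 points in *rrp6L2* and -0.257 in Col-0. Without replicate 2 of *RRP44KD rrp6L2 rrp41* RRP41Pi-Cat- it was 1.09 points, with an adjusted p of 0.0533 in the same exact test. When all 389 positions with an untailed read were tested, the adjusted p was 0.0807.

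Whether the effect of Exo9 differed between backgrounds was tested against Col-0. At P185, the change was larger in *RRP44KD rrp6L2* by 1.38 on the log2 scale (95% CI 0.46 to 2.30, limma adjusted p = 0.0467), 1 of 7 positions called (11.5%). Without replicate 2 of *RRP44KD rrp6L2 rrp41* RRP41Pi-Cat- it was 0.87 (adjusted p = 0.361), and leaving out 8 other libraries one at a time also ended the call, as did 6 alternatives of processing (adjusted p = 0.0544 to 0.186). At P186, the changes in *rrp6L2*, *RRP44KD rrp6L2* and *mtr4* were larger than in Col-0 by 0.53, 1.04 and 0.93, and none passed (limma, adjusted p = 0.657, 0.147 and 0.185). The *rrp6L2* and *mtr4* contrasts called 1.64% and 13.1% of positions, and neither called P185 (differences of 0.23 and 0.77, limma adjusted p = 0.896 and 0.292).

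P187 stayed rare in all genotypes. With inactive Exo9 it ranged from 0% to 0.612% of untailed reads, and with active Exo9 from 0.0809% to 0.488%. In 0 of 1556 untailed reads of replicate 1 of *rrp41* RRP41Pi- it was seen, which by the floor of 3 reads allows a share of up to 0.193%. Groups overlapped in 3 backgrounds, and in *mtr4* P187 held 0.322% and 0.310% in *mtr4 rrp41* RRP41Pi-Cat-, against 0.126% to 0.210% with active Exo9. Over the 4 backgrounds the difference of 0.0657 points did not pass (exact permutation test, p = 0.176, adjusted p = 0.233). With tailed reads added it was 0.139 points and passed (adjusted p = 0.0328 in the same exact test). The neighbours P184 and P188 differed by 0.0694 and 0.0524 points and did not pass either (exact permutation test, adjusted p = 0.145 and 0.186).

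Within the 3 ends, the split moved toward P186 with inactive Exo9. P186 made up 73.4% ± 5.74 of their reads with inactive Exo9 and 65.6% ± 3.34 with active Exo9 in Col-0 (SD, n = 4 each), 77.4% and 65.4% in *rrp6L2*, and 72.4% and 62.2% in *mtr4*. In *RRP44KD rrp6L2* the means were nearer, at 58.7% and 54.9%. Here 57.5 and 77.0 P185 reads per 100 P186 reads were found with inactive Exo9, against 68.9 to 81.5 with active Exo9. In no other background did a library with inactive Exo9 have more than 45.5. The libraries did not overlap in *rrp6L2* and *mtr4* and did in Col-0 and *RRP44KD rrp6L2*. The split is given as a description with no test.

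The mutations in the backgrounds themselves were compared next, first with active Exo9 (4 libraries against 4). Without RRP6L2, P186 averaged 10.1% ± 2.32, against 11.7% ± 1.35 in the Col-0 background, and P185 averaged 4.99% ± 0.588, against 5.92% ± 0.248. Neither passed, with log2 changes of -0.22 (95% CI -0.81 to 0.37) and -0.25 (95% CI -0.83 to 0.33; limma, adjusted p = 0.709 and 0.669), where 16.4% of positions did. P185 lay below the Col-0 background in all 4 *rrp6L2* background libraries, but the nearest libraries differed by less than counting error. These were *rrp6L2* replicate 1 with 5.66% (95% CI 5.10 to 6.29) and *rrp41* RRP41WT replicate 2 with 5.69% (95% CI 4.91 to 6.59).

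With RRP44 knocked down in *rrp6L2*, the share of P186 was lower. The *RRP44KD* plants were selected by their P-P′ build-up, so knockdown and this selection cannot be told apart. The 4 *RRP44KD rrp6L2* background libraries had 2.98% to 6.83%, all below the 7.41% to 13% of the 4 *rrp6L2* background libraries. P186 fell by 1.09 on the log2 scale (95% CI -1.68 to -0.50, limma adjusted p = 0.00659), and 29.5% of positions passed. P185 averaged 3.63% ± 1.10, against 4.99% ± 0.588, and the change of -0.49 did not pass (limma, adjusted p = 0.195). In the exact permutation test of these 8 libraries, the P186 difference of -5.33 points had p = 0.0286, the smallest possible, and 0.0726 after adjustment.

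Loss of MTR4 lowered the share of both ends. The paper reports from northern blots a marked build-up of P-P1 intermediates without MTR4, so lower shares need not stand for less of these ends. P186 held 3.48% to 6.78% in the *mtr4* background, against 10% to 12.8% in Col-0, and P185 held 2.03% to 3.36%, against 5.69% to 6.18%. Neither pair of groups overlapped. P186 fell by 1.24 (95% CI -1.83 to -0.65, limma adjusted p = 0.00138) and P185 by 1.06 (95% CI -1.64 to -0.48, adjusted p = 0.00408) on the log2 scale, in a contrast that called 37.7% of positions. In the exact permutation test both had p = 0.0286, the smallest possible, and 0.0816 after adjustment. P187 averaged 0.158%, against 0.177%, a log2 change of -0.03 (limma, adjusted p = 0.966).

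With inactive Exo9, where each genotype has 2 libraries, none of these losses passed at P185 or P186. P186 averaged 19.7% in *rrp6L2 rrp41* RRP41Pi-Cat-, against 16.7% in *rrp41* RRP41Pi-Cat- (log2 change 0.23, 95% CI -0.61 to 1.06, limma adjusted p = 0.775), and 8.20% of positions were called. Knockdown of RRP44 gave 13.2%, against 19.7% in *rrp6L2 rrp41* RRP41Pi-Cat- (-0.59, 95% CI -1.43 to 0.24, adjusted p = 0.365), with 19.7% of positions called. For loss of MTR4 the values were 13%, against 16.7% in *rrp41* RRP41Pi-Cat- (-0.39, 95% CI -1.23 to 0.44, adjusted p = 0.661), with 11.5% called. The changes of P185 were -0.19, 0.65 and -0.46 (limma, adjusted p = 0.792, 0.306 and 0.559).

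**Figure D3:**
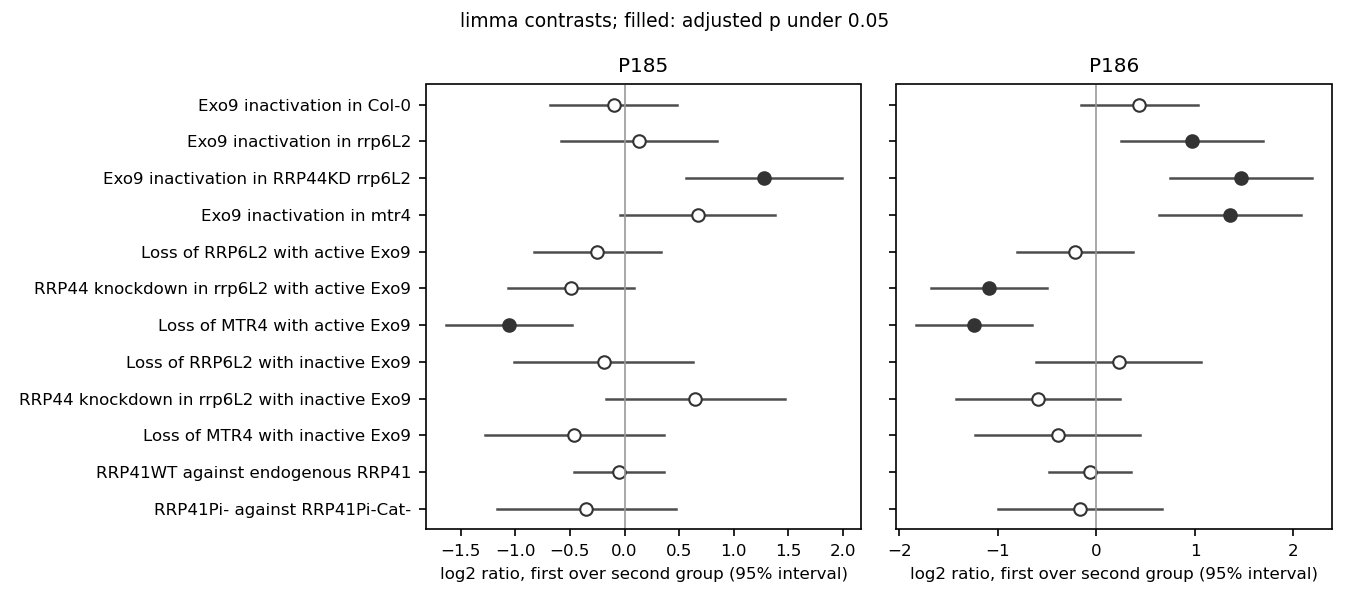
Log2 ratios of the percentage of untailed reads (plus 0.1) at P185 and P186 with 95% intervals (limma) for 12 contrasts, the altered group over its reference. Filled points passed an adjusted p of 0.05. At P186, the 3 ratios that passed with Exo9 inactivation lie above 0 and those of RRP44 knockdown and MTR4 loss with active Exo9 lie below it.

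The 2 forms of each Exo9 state were also compared, and no difference was detected at these ends. RRP41WT libraries averaged 7.79% P186 and 4.26% P185 over the 4 backgrounds, against 8.07% and 4.43% with endogenous RRP41, and log2 ratios were -0.07 (95% CI -0.48 to 0.35) and -0.05 (95% CI -0.46 to 0.36; limma, adjusted p = 0.956 for both). This contrast called 0% of the 61 positions, and 1 had an unadjusted p under 0.05. *rrp41* RRP41Pi- averaged 14.9% P186 and 5.02% P185, against 16.7% and 6.30% in *rrp41* RRP41Pi-Cat-, with ratios of -0.17 (95% CI -1.0 to 0.67) and -0.35 (95% CI -1.17 to 0.47; limma, adjusted p = 0.805 and 0.632). Here too 0% of positions were called, with 6 at an unadjusted p under 0.05. P187 averaged 0.0322% in *rrp41* RRP41Pi-, where 1 read was found in all, against 0.171% in *rrp41* RRP41Pi-Cat- (limma, adjusted p = 0.405).

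P186 was set against P176, the next shorter major end. Of the untailed reads at these 2 ends, P186 took 98.9%, 97.4%, 98.8% and 85.9% in *rrp41* RRP41Pi-Cat- and *rrp41* RRP41Pi-, against 65.4%, 77.3%, 71.7% and 60.5% in *rrp41* RRP41WT and Col-0. In *rrp6L2*, it took 96.6% and 93.3% with inactive Exo9, against 43.2% to 59.9% with active Exo9. In *mtr4*, it took 96.5% and 95%, against 28.9% to 34.4%. The *RRP44KD rrp6L2* background had the lowest share of P186 with inactive Exo9, with 62.4% and 81.3%, against 19.2% to 34.9%. P176 itself held 6.32% and 3.67% of untailed reads in the 2 libraries of *RRP44KD rrp6L2 rrp41* RRP41Pi-Cat-, against 0.182% to 2.26% in the remaining 8 with inactive Exo9. The groups did not overlap in any background, and the mean difference was 44.8 percentage points (exact permutation test, p = 4.23e-06, the smallest possible). The paper had reported from these libraries that P176 is absent with inactive Exo9 in the Col-0 and *rrp6L2* backgrounds. Over the 4 backgrounds, P176 averaged 1.86% with inactive Exo9 and 9.61% with active Exo9. Loss of P176 raises this ratio whatever P186 does. Its outcome was thus largely set beforehand, and the test does not bear on a change of P186. Since the same reads set the shares of both ends, this ratio is also not independent of the P186 difference given above.

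**Figure D4:**
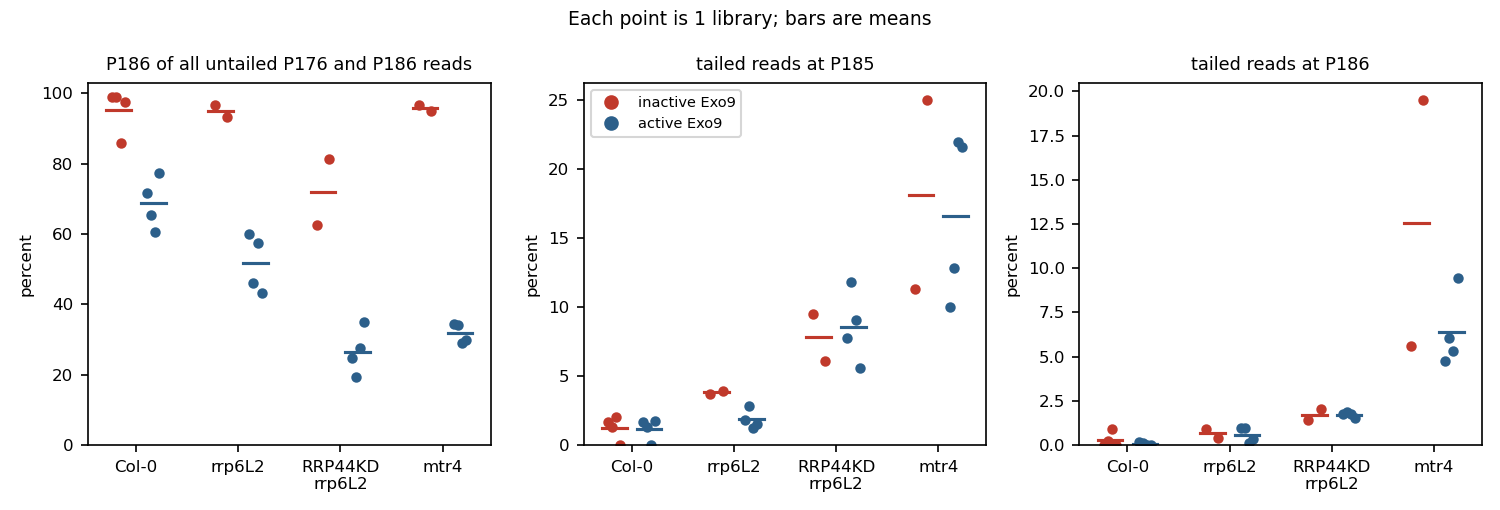
P186 as a percentage of untailed P176 and P186 reads (left), and the percentage of reads with a tail at P185 (middle) and P186 (right), by background, with 1 point per library and bars at the means. Points of inactive Exo9 lie above those of active Exo9 in all backgrounds on the left, and tailed shares are highest in *mtr4* (up to 25.0% at P185 and 19.5% at P186).

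The rule set tailed reads aside, and they were counted separately at the same ends. P186 was nearly free of tails outside *mtr4*. Of 17377 reads at P186, 399 (2.30%) carried a tail, against 566 of 8672 (6.53%) at P185 and 173 of 571 (30.3%) at P187. Most of the tailed P187 reads came from *mtr4*, with 62 of 101 reads tailed with inactive Exo9 and 62 of 110 with active Exo9. In the other backgrounds, pooled by Exo9 state, 5.62% to 31.0% of P187 reads were tailed. In the Col-0 background, 5 of 2470 reads at P186 were tailed with inactive Exo9 and 3 of 2441 with active Exo9. In *RRP44KD rrp6L2* the tailed share at P186 was 1.39% and 2.02% with inactive Exo9, against 1.51% to 1.85% with active Exo9. In *mtr4* it was 5.59% and 19.5% with inactive Exo9, against 4.75% to 9.45% with active Exo9. At P185, it was 11.3% and 25.0% in *mtr4* with inactive Exo9, against 10% to 22% with active Exo9, and 9.49% and 6.12% in *RRP44KD rrp6L2* with inactive Exo9, against 5.59% to 11.8% with active Exo9. In *rrp6L2* the groups did not overlap at P185, with 3.72% and 3.95% with inactive Exo9, against 1.25% to 2.84% with active Exo9. The groups overlapped at P185 in the other backgrounds and at P186 in every background. An exact permutation test of 2 against 4 libraries cannot give less than p = 0.0667, so this separation is a description only.

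A change of the tailed share with Exo9 inactivation was not detectable at either end. The mean difference over 4 backgrounds was 1.61 percentage points at P186 (exact permutation test, p = 0.133, adjusted p = 0.229) and 0.711 points at P185 (exact p = 0.581, adjusted p = 0.633). Of the 12 positions with at least 10 reads in every library, 0% passed, and 4 had an unadjusted p under 0.05. The difference at P186 rested on replicate 2 of *mtr4 rrp41* RRP41Pi-Cat-, without which it was -0.131 points. P187 had too few reads for this test.

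The higher tailed shares in *mtr4* were noticed in these values and then compared. With active Exo9, they exceeded those of the Col-0 background by 6.32 percentage points at P186 and by 15.4 points at P185, and all 4 *mtr4* libraries lay above all 4 of Col-0 at both ends. The exact permutation test gave p = 0.0286 for both, the smallest that 4 against 4 libraries allow, and 0.0714 after adjustment over 25 positions, of which 0% passed and 10 had an unadjusted p under 0.05. The tails were made of A for the most part. Among tails of at least 2 nt, A made up 95% at P186 and 94.8% at P185, with a median length of 9 nt at both. In *mtr4*, only 10 of 198 tails at P186 with inactive Exo9 and 10 of 108 with active Exo9 were single nucleotides. Single added nucleotides prevailed at P185 in *RRP44KD rrp6L2*, with 74 of 94 tails with inactive Exo9 and 82 of 101 with active Exo9, and most of these were A. No single C was counted as a tail at P185 and no single U at P186, as their sequence requires.

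The base change T137C was counted in the same reads. In P186 reads, T137C made up 74.0% with inactive Exo9 and 37.4% with active Exo9 in *rrp6L2*, 68.7% and 41.0% in *RRP44KD rrp6L2*, and 55.7% and 30.4% in *mtr4*, with no overlap of libraries. In Col-0 the means were 64.0% and 66.0%, and the libraries overlapped. The pooled reads of the other untailed ends from P157 to P200 had T137C shares of 73.6% and 38.5% in *rrp6L2*, 71.5% and 44.2% in *RRP44KD rrp6L2*, and 61.6% and 35.5% in *mtr4*. Whether these differences were of one size at P186 and at the other ends was not tested. Within reads with or without T137C the P186 difference with Exo9 inactivation was close to that in all untailed reads ending from P140 to P200, as given above.

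Within a library, T137C was slightly rarer in P186 reads than in the pooled reads of the other ends. It was lower by 2.65 percentage points on average, in 11 of 13 genotypes and 20 of 26 libraries (exact sign-flip permutation test over 13 genotype means, p = 0.00342). Against P168, a shorter major end, it was lower in all 26 libraries, by 11.8 points on average (exact p = 2.44e-04, the smallest possible). P168 is itself part of the pool of other ends, and the pool without P168 was not tested. P185 had still less T137C than P186 in 23 of 26 libraries, by 4.32 points on average, which is given with no test.

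**Figure D5:**
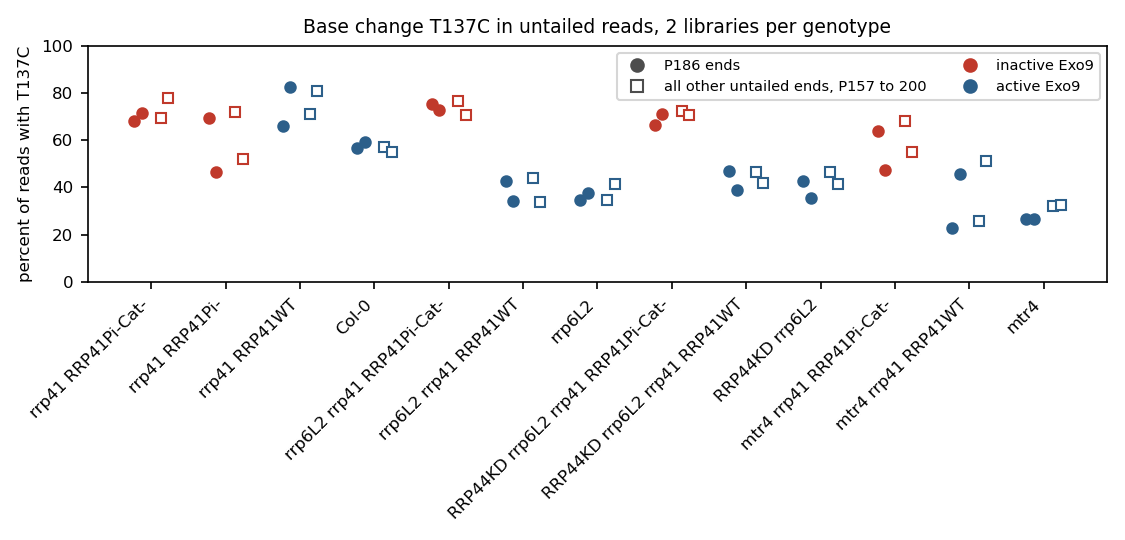
Percentage of untailed reads with T137C at P186 (filled circles) and at all other ends from P157 to P200 (open squares) in 2 libraries of each of 13 genotypes. In *rrp6L2*, *RRP44KD rrp6L2* and *mtr4*, both lie higher with inactive Exo9 (P186 from 47.5% to 75.3%) than with active Exo9 (22.9% to 46.9%).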

How the data were processed

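3′RACE-seq of 5′ ETS intermediates was analysed in 26 libraries. In the study's methods, the authors deduplicated reads by their random nucleotides, mapped read 2 to the rRNA repeat with their own Python scripts, trimmed unmatched reads from the 3′ end by up to 30 nt and recorded the trimmed bases as a tail. Tails of 6 nt or more were kept by them only with stretches of A or T, which bears on tail composition. The deposited table holds no other unit than 1 line per read, with its 3′ end position and tail length, and no normalization.

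Reads were assigned to libraries by genotype and replicate. Untailed reads per position were divided by all untailed reads of the library. Exo9 inactivation over backgrounds, the P186 to P176 ratio and tailed shares (at least 10 reads) were tested by two-sided exact permutation of libraries within backgrounds, and T137C by sign flips of genotype means. Other contrasts came from 1 limma-trend fit (limma 3.58.1, R 4.3.3) of 13 genotype means on log2(percentage + 0.1), so that ratios of rare ends are understated. Positions 140 to 200 were adjusted together (Benjamini-Hochberg, threshold 0.05). Code ran in Python 3.11.15 with NumPy 2.4.6 and pandas 2.3.3, and the tests were tested on simulated data. P-values measure the spread between libraries, and pools of plants may share more than genotype. Named positions are P185 to P187, their neighbours P184 and P188, and the major ends P161, P168 and P176; P166 was named after its values were seen. The ends and tests were chosen with earlier results of these data known. Alternatives are given in the closing section. Sequences come from the reference of the study and coordinates from RefSeq's TAIR10.1.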

Additional observations from a re-analysis of the deposited data

Results flagged for a closer look

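The effect of Exo9 inactivation on P185 was larger in *RRP44KD rrp6L2* than in the Col-0 background by 1.38 on the log2 scale (limma, adjusted p = 0.0467). It was singled out because the difference between backgrounds itself passed its test, 1 of 9 such tests at P185, P186 and P187. P185 was higher with inactive Exo9 in 2 of 2 *RRP44KD rrp6L2* libraries and in 2 of 4 Col-0 background libraries. Over its alternatives, the difference ranged from 0.87 to 1.88. It no longer passed with ends limited to P140 to P200 (limma, adjusted p = 0.0544), with tailed reads added (0.0544), thinned to the smallest library (0.128), among T137C reads (0.0616), over every position (0.186) or as a centred log-ratio (0.103). In sets of 4 libraries, 15 combinations of set and end were searched for 1 library far from the others, and none was found. *RRP44KD rrp6L2 rrp41* RRP41Pi-Cat- has 2 libraries and was not in these sets, so the search could not assess it. The lowest value, 0.87, was reached without its replicate 2.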

How the results depend on the processing

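P186 results kept their direction and side of the threshold in 189 of 209 combinations of result and alternative, and P185 results in 169 of 200. The P186 difference with Exo9 inactivation over backgrounds kept its call in all alternatives run (6.76 to 8.27 points without 1 library), as did the P186 to P176 ratio (42.4 to 47.1). The change of P186 in *rrp6L2* no longer passed among reads without T137C (0.93), when thinned to the smallest library (0.94), over every position (0.97) or with a replicate block (0.97, limma adjusted p = 0.0520), and was 0.77 to 1.17 without 1 library. Without 1 library, P186 changed by 1.17 to 1.77 in *RRP44KD rrp6L2* and by 1.02 to 1.70 in *mtr4*. By the exact permutation test, the differences of -5.33 points for RRP44 knockdown and -6.60 points for MTR4 loss did not pass after adjustment. The causes were not tested.

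Signs turned in contrasts that had not passed. P185 in Col-0 was 0.0191 with tailed reads added, 0.0106 without T137C reads, 0.254 as a centred log-ratio and -0.277 to 0.0766 without 1 library. As centred log-ratios, RRP6L2 loss with inactive Exo9 gave -0.13 at P186, and RRP41WT against endogenous RRP41 gave 0.0191 at P185 and 6.19e-04 at P186. Without 1 library, these were -0.399 to 0.0197 for RRP6L2 loss at P185, -0.172 to 0.0755 and -0.213 to 0.0795 for RRP41WT at P185 and P186, -0.703 to 0.0038 for RRP41Pi- at P185, and for tailed shares -1.0 to 2.42 points at P185 and -0.131 to 3.35 points at P186. Centring moved the P186 contrasts of Exo9 by 0.142 to 0.354.

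Over all genotypes the replicate numbers gave no common pairing, since only 32 of 78 pairs of genotypes had a correlation of deviations over 0.1. In 10 of 13 genotypes the mean correlation at the same replicate number was above 0. Within backgrounds P186 did shift together. It was lower in replicate 2 in every *mtr4* background genotype and higher in every *rrp6L2* and *RRP44KD rrp6L2* background genotype. The limma contrasts did not model a shift within backgrounds. With the replicate block, 33 positions passed over backgrounds, against 31 without it, and P186 differed by 7.52 points (exact p = 3.81e-05). P187 had 0 to 46 reads per library, so that small changes could not be detected at this depth.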
